A study of Homo sapiens with 36 samples.

Results

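The genes of the chromatin remodelling complexes were examined in WiT49, an established cell line from an anaplastic Wilms tumor, a childhood kidney tumor. The set held 46 genes, 18 of them ATPases and 28 accessory subunits, out of 58219 genes listed in the RNA data and 43582 in the footprint data, and all 46 were found by symbol. The genes were named in a list of CHD, SWI/SNF, ISWI, INO80 and NuRD members drawn up with earlier results of these data known, among them the low CHD4 footprints at 72 h, so the 72 h footprint values, and the calls made with them, are given below as a description from which nothing is concluded. Cells were given actinomycin D (actD) at 2 nM, a chemotherapy agent that intercalates into DNA and stalls RNA polymerases, or the solvent DMSO alone. Exposure lasted 6 h, 72 h or 2 weeks; the last was made of 2 cycles of 7 days, in each of which 3 days of exposure were followed by 4 days in medium without either. Total RNA and ribosome footprints (pieces of mRNA shielded by ribosomes) were each sequenced in 3 libraries per group, 36 libraries in 12 groups. For RNA at 2 weeks the sample titles and the column names give opposite treatments. Groups here follow the column names (written as named actd or named dmso), and every 2-week RNA difference below would carry the opposite sign under the titles.

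Chromatin remodellers are complexes built around an ATPase of the SNF2 family, which uses the energy of ATP to slide, evict or exchange nucleosomes, while accessory subunits choose the site and tune the motor. SWI/SNF (BAF and PBAF, with SMARCA4 or SMARCA2 as the motor) opens chromatin at enhancers and promoters, ISWI (SMARCA5 or SMARCA1) spaces nucleosomes, the INO80 family (INO80, SRCAP, EP400) handles the histone variant H2A.Z, and NuRD joins a CHD motor (CHD3, CHD4 or CHD5) to the histone deacetylases HDAC1 and HDAC2. Several of these subunits are altered in childhood tumors, SMARCB1 in rhabdoid tumors being the classic case.

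Most of the set read lower with actD than with DMSO, most widely at 72 h, but no member passed the test in RNA at any time. At 6 h 30 of 46 members had a log2 fold change below 0 in RNA, at 72 h 41 of 46, and at 2 weeks, by column name, 36 of 46, against 47.0%, 48.6% and 53.2% of all genes tested. The median log2 fold change of the members was -0.06 at 6 h, -0.28 at 72 h and -0.18 at 2 weeks, and that of all genes tested was 0.02, 0.02 and -0.02. All members code for proteins, and among protein-coding genes tested 47.61%, 54.63% and 50.07% were lower, with medians of 0.01, -0.05 and -0.00. RNA values also went with coding length (coding exons of all annotated transcripts of a gene, merged). In the longest of 4 bins of coding length, which held 27 of the 46 members, the medians over all protein-coding genes tested were -0.08, -0.20 and -0.10. Genes at least as long as the shortest ATPase stood at -0.11, -0.22 and -0.13, against ATPase medians of -0.11, -0.22 and -0.28; the part of length in the members' values was not tested. By edgeR (quasi-likelihood, Benjamini-Hochberg), 0 of 46 members had an adjusted p under 0.05 at each time, where percent called over all genes was 0.0, 0.00472 and 0.0. At an unadjusted p under 0.05 there were 7 members at 6 h, 9 at 72 h and 11 at 2 weeks, all lower except 1 at 2 weeks. That threshold took 8.21%, 13.1% and 8.93% of all genes, and 4.54%, 7.78% and 4.93% as lower. DESeq2 called 2 members at 6 h (CHD4 and BRD9), 2 at 72 h (SMARCC1 and RBBP7) and 3 at 2 weeks (CHD4, CHD6 and PBRM1), all lower, where it called 0.618%, 2.26% and 0.492% of all genes lower. A single edgeR fit over the 3 times called 5 members lower at 72 h, and 3.61% of all genes. The labels do not say whether the 3 libraries of a group came from separate cultures, so p-values measure the spread between these libraries only. These are bulk libraries, in which fewer cells of a kind and less RNA per cell cannot be told apart.

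**Figure D1:**
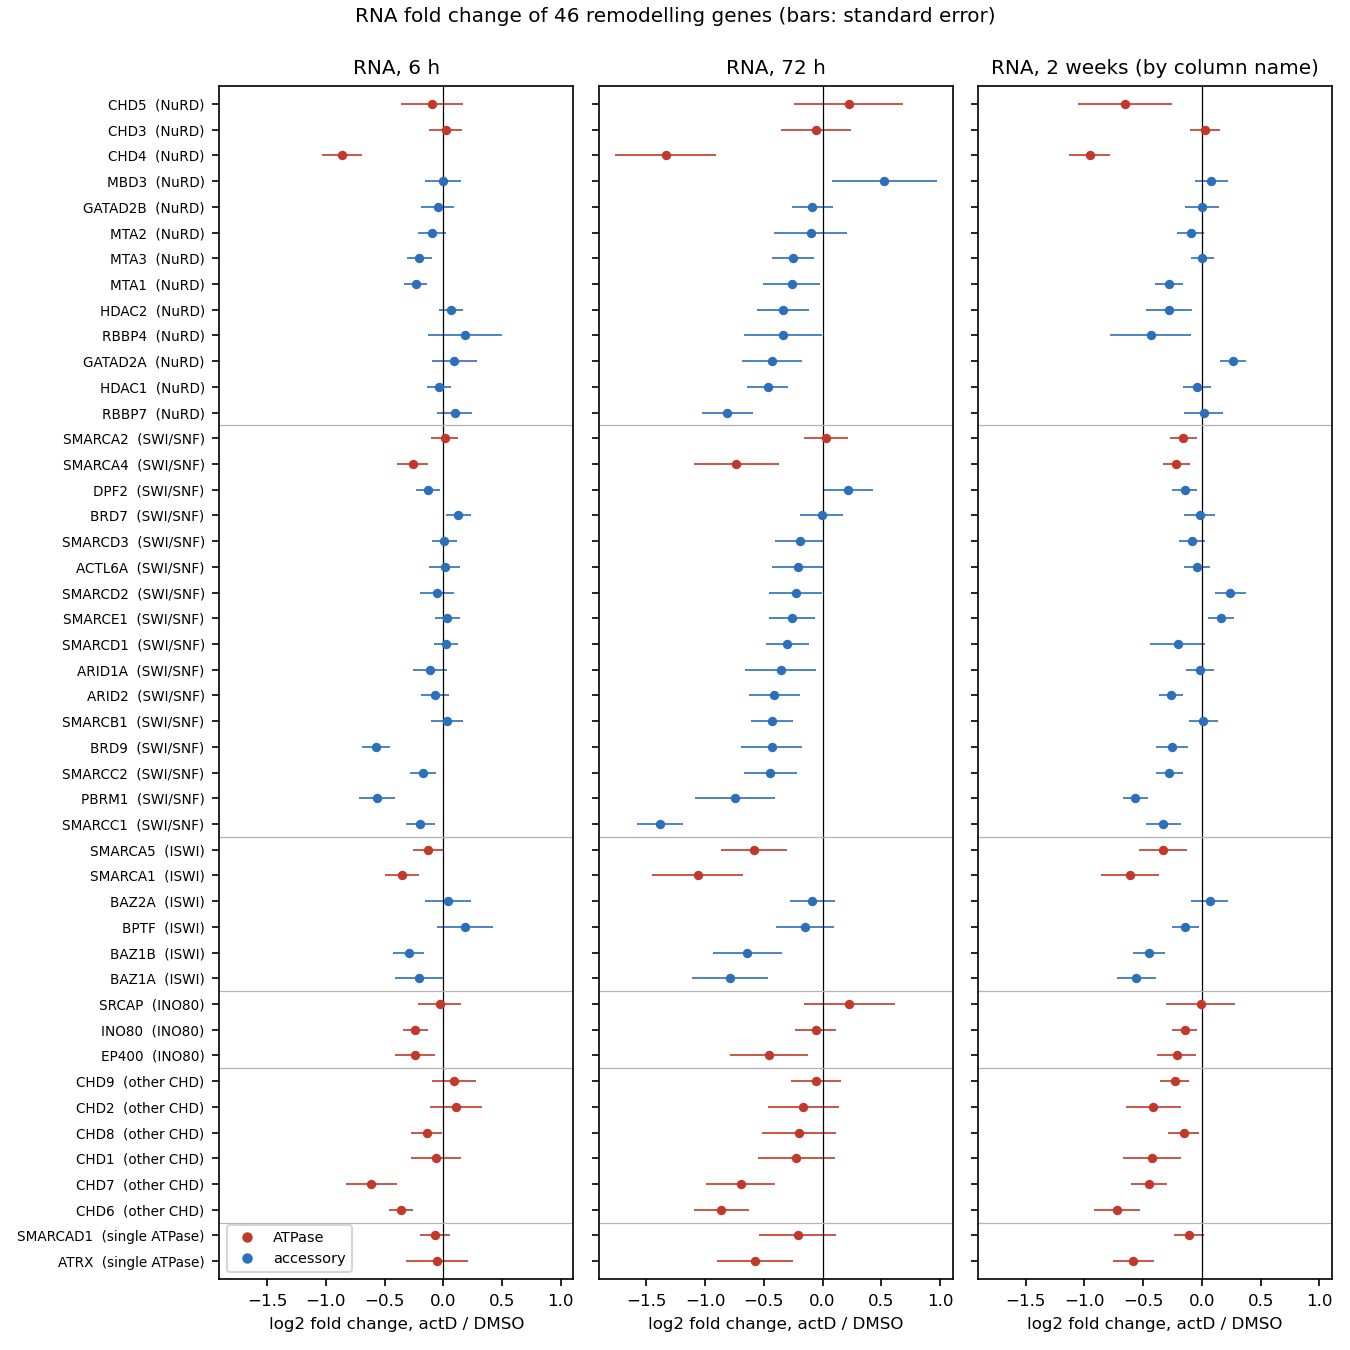
Log2 fold change of RNA (actD over DMSO, x axis) of each of the 46 genes (rows, grouped by complex), with its standard error as a bar, at 6 h, 72 h and 2 weeks; ATPases are red and accessory subunits blue. CHD4 lies at -0.86, -1.34 and -0.95, whereas its paralog CHD3 lies at 0.02, -0.06 and 0.03. The 2-week values follow the column names, and their signs would be opposite under the sample titles.

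Levels differed widely within the set. In RNA of DMSO cells at 6 h, scaled to exonic length, HDAC1 was the highest at 53.0 ± 2.29 CPM per kb (CPM are counts scaled to library size with TMM factors, here divided by exonic length; SD, n = 3), followed by MTA2 at 42.2 ± 3.92, BAZ1B at 42.0 ± 2.07 and CHD4 at 37.7 ± 2.15. MTA2 and BAZ1B differed by less than their SD. SMARCA4 (18.9 ± 0.673 CPM per kb) was far above its alternative SMARCA2 (1.29 ± 0.109), and CHD5, the CHD motor best known from neurons, was last of 46 at 0.201 ± 0.0301. In these libraries CHD4 was the highest ATPase per length, followed by SMARCA1 (31.99 ± 4.42), and SMARCA5 stood at 17.9 ± 1.67. Exonic length merges the exons of all annotated transcripts of a gene, 4363 bp for SMARCA1, 12713 bp for CHD4 and 15778 bp for SMARCA4. The order between genes depends on it: not scaled to length, SMARCA4 (298 CPM) was above SMARCA1 (140 CPM). The order per length differed at the other times: SMARCA1 (34.8 ± 8.74) was above CHD4 (23.1 ± 15.0) with DMSO at 72 h, within their spread, and CHD3 (37.1 ± 3.93) and SMARCA1 (36.7 ± 0.718) were above CHD4 (30.5 ± 1.08) in libraries named dmso at 2 weeks. Not scaled to length, mean CHD4 was above mean SMARCA1 at 72 h (293 against 152 CPM) and at 2 weeks (387 against 160 CPM).

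CHD4, the main motor of NuRD, was lower with actD without overlap in RNA at 6 h and 72 h and in footprints at 6 h and 2 weeks. In RNA at 2 weeks it was lower in libraries named actd. Its low 72 h footprints were known when the genes were listed and are not counted here. At 6 h CHD4 RNA read 451, 506 and 481 CPM with DMSO and 286, 304 and 199.7 with actD. At 72 h it read 215, 511 and 153 CPM with DMSO and 113, 133 and 102 with actD, and at 2 weeks 372, 395 and 395 CPM (named dmso) and 253, 159 and 188 (named actd). The RNA groups did not overlap at any of the 3 times, and the DMSO libraries at 72 h were the most spread, with replicate 2 far above the others. The log2 fold changes were -0.86 (SE 0.17, edgeR adjusted p 0.247), -1.34 (SE 0.43, adjusted p 0.294) and -0.95 (SE 0.17, adjusted p 0.287), none of them past the threshold. Without DMSO replicate 2 the 72 h value was -0.67.

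CHD3 can take the place of CHD4 in NuRD, and its RNA stayed close to the DMSO level. It read 183, 227 and 254 CPM with DMSO and 225, 222 and 226 with actD at 6 h. CHD3 at 72 h read 189.7, 289.9 and 130.5 CPM with DMSO and 177, 211 and 199 with actD. CHD3 at 2 weeks read 342, 337 and 406 CPM (named dmso) and 392.1, 339 and 374 (named actd). These groups overlapped at each time, with log2 fold changes of 0.02, -0.06 and 0.03 (SE 0.14, 0.30 and 0.13). The share of CHD4 in the sum of CHD3 and CHD4, each per exonic length and free of scaling between libraries, was 47.0% ± 5.80 with actD against 62.6% ± 3.09 with DMSO at 6 h (SD, n = 3). It was 31.3% ± 2.64 against 50.5% ± 6.09 at 72 h and 29.2% ± 3.49 in libraries named actd against 45.2% ± 2.31 in those named dmso at 2 weeks. The groups did not overlap at any of the 3 times; an exact permutation test of 3 against 3 libraries cannot go below p = 0.1, so none was read. CHD5 was low throughout: it read 1.75, 2.32 and 1.90 CPM with DMSO and 2.42, 1.79 and 1.36 with actD at 6 h. CHD5 at 72 h read 0.107, 0.310 and 0.188 CPM with DMSO and 0.294, 0.203 and 0.216 with actD. CHD5 at 2 weeks read 0.436, 0.605 and 0.563 CPM (named dmso) and 0.260, 0.436 and 0.318 (named actd). The CHD5 groups overlapped each time.

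**Figure D2:**
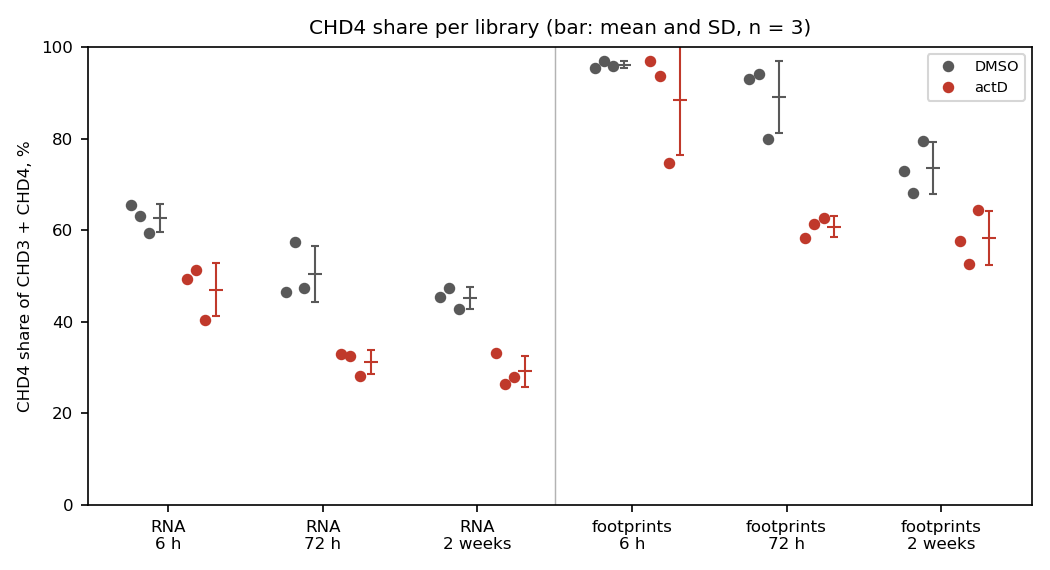
Share of CHD4 in the summed length-scaled level of CHD3 and CHD4 (y axis, percent) in each library, by assay and time (x axis), with the mean and SD of 3 libraries beside the points; DMSO is grey, actD red, and the 2-week RNA libraries follow their column names. In RNA the actD libraries lie below all DMSO libraries at each time (28.2% to 33.0% against 46.6% to 57.5% at 72 h); in 6 h footprints the arms overlap.

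The accessory subunits of NuRD had medians near 0 at 6 h and at 2 weeks. Of 10 such subunits 6 were lower at 6 h, 9 at 72 h and 5 at 2 weeks, with median log2 fold changes of -0.02, -0.30 and -0.02. Over all genes tested 47.0%, 48.6% and 53.2% were lower at these times. RBBP7, a histone chaperone shared with other complexes, was the lowest at 72 h, with 184, 203 and 153 CPM with DMSO and 85.6, 124 and 97.9 with actD. Those groups did not overlap (log2 fold change -0.81, SE 0.22, edgeR adjusted p 0.265; DESeq2 called it), while at 6 h and 2 weeks they did. HDAC1, the deacetylase, was also lower without overlap at 72 h (173, 156 and 141 CPM with DMSO and 108.6, 117 and 115 with actD; log2 fold change -0.47, adjusted p 0.34). MBD3, the methyl-binding-domain subunit, had the highest log2 fold change of the set at 72 h, 0.52 (SE 0.45, adjusted p 0.644), with overlapping groups at 43.1, 50.6 and 14.2 CPM with DMSO and 63.3, 54.2 and 37.6 with actD. GATAD2A had the highest at 2 weeks, 0.26 (SE 0.11, adjusted p 0.536), with 64.0, 68.6 and 68.2 CPM (named dmso) and 73.2, 82.3 and 85.5 (named actd).

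Of the 14 accessory subunits of SWI/SNF 8 were lower at 6 h, 13 at 72 h and 11 at 2 weeks, with medians of -0.06, -0.33 and -0.12. The shares of all genes tested that were lower were 47.0%, 48.6% and 53.2%. At 72 h SMARCC1, SMARCC2, SMARCB1 and SMARCD1 were lower without overlap. SMARCC1, a core scaffold that holds the complex together, had the lowest value of all members at 72 h, with 212, 249 and 205 CPM with DMSO and 75.9, 82.8 and 97.3 with actD. The groups were far apart, with a log2 fold change of -1.38 (SE 0.20, edgeR adjusted p 0.174). At 6 h it read 187, 210.5 and 195 CPM with DMSO and 172, 191 and 155 with actD, with overlapping groups and a log2 fold change of -0.20, and at 2 weeks 204, 198 and 237 CPM (named dmso) and 199.97, 145 and 164 (named actd) and -0.33. The difference between its 72 h and 6 h effects was -1.20 (SE 0.22, edgeR interaction adjusted p 0.206), not past the threshold, although DESeq2 called it. SMARCC2, its paralog, was lower without overlap at each of the 3 times but by less: -0.17, -0.44 and -0.28. The share of SMARCC1 in the pair, per exonic length, was 75.2% ± 3.61 with actD and 85.6% ± 1.68 with DMSO at 72 h, without overlap, whereas at 6 h (78.4% ± 0.931 against 78.7% ± 1.05) and at 2 weeks the groups overlapped.

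PBRM1, which carries bromodomains that read acetylated histones, read 84.8, 102 and 107.3 CPM with DMSO and 57.5, 78.4 and 63.0 with actD at 6 h. Its values at 72 h were 82.5, 110.4 and 52.3 CPM with DMSO and 44.5, 35.1 and 66.4 with actD, and at 2 weeks 73.9, 77.6 and 66.6 CPM (named dmso) and 51.6, 49.5 and 46.3 (named actd). The groups overlapped at 72 h only, and the log2 fold changes were -0.56, -0.75 and -0.57 (SE 0.15, 0.34 and 0.11; edgeR adjusted p 0.451, 0.404 and 0.319). BRD9, the bromodomain subunit of the noncanonical complex, was lower at 6 h, with 51.0, 53.4 and 49.7 CPM with DMSO and 36.7, 36.9 and 29.7 with actD and a log2 fold change of -0.58 (SE 0.12, adjusted p 0.278). Its groups overlapped at 72 h and at 2 weeks. Among the values above 0, BRD7 stood at 0.13 at 6 h (adjusted p 0.811), with 83.7, 92.3 and 82.9 CPM with DMSO and 93.8, 89.6 and 99.8 with actD. SMARCD2 stood at 0.24 at 2 weeks (adjusted p 0.633), with 39.1, 54.0 and 45.2 CPM (named dmso) and 54.1, 55.1 and 54.6 (named actd). SMARCE1 stood at 0.16 at 2 weeks (adjusted p 0.689), with 117, 118 and 134 CPM (named dmso) and 146, 133 and 134 (named actd) and overlapping groups. SMARCB1 was 0.03, -0.43 and 0.01, without overlap at 72 h only.

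The SWI/SNF motor SMARCA4 read 293, 310.4 and 291 CPM with DMSO and 263, 273 and 211 with actD at 6 h. At 72 h it read 141, 253 and 90.2 CPM with DMSO and 87.5, 111.5 and 92.1 with actD, and at 2 weeks 196, 181 and 214 CPM (named dmso) and 179.6, 162 and 166 (named actd). The groups were apart at 6 h and at 2 weeks but overlapped at 72 h, where the log2 fold change of -0.73 (SE 0.36, adjusted p 0.443) was -0.26 without DMSO replicate 2. SMARCA2, the alternative motor, lay close to DMSO, with log2 fold changes of 0.01, 0.03 and -0.16. Its libraries read 23.5, 26.3 and 22.3 CPM with DMSO and 24.3, 25.2 and 23.3 with actD at 6 h. SMARCA2 at 72 h read 21.2, 21.2 and 25.6 CPM with DMSO and 21.9, 22.5 and 25.03 with actD. SMARCA2 at 2 weeks read 22.02, 23.2 and 25.5 CPM (named dmso) and 22.8, 21.4 and 19.2 (named actd).

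**Figure D3:**
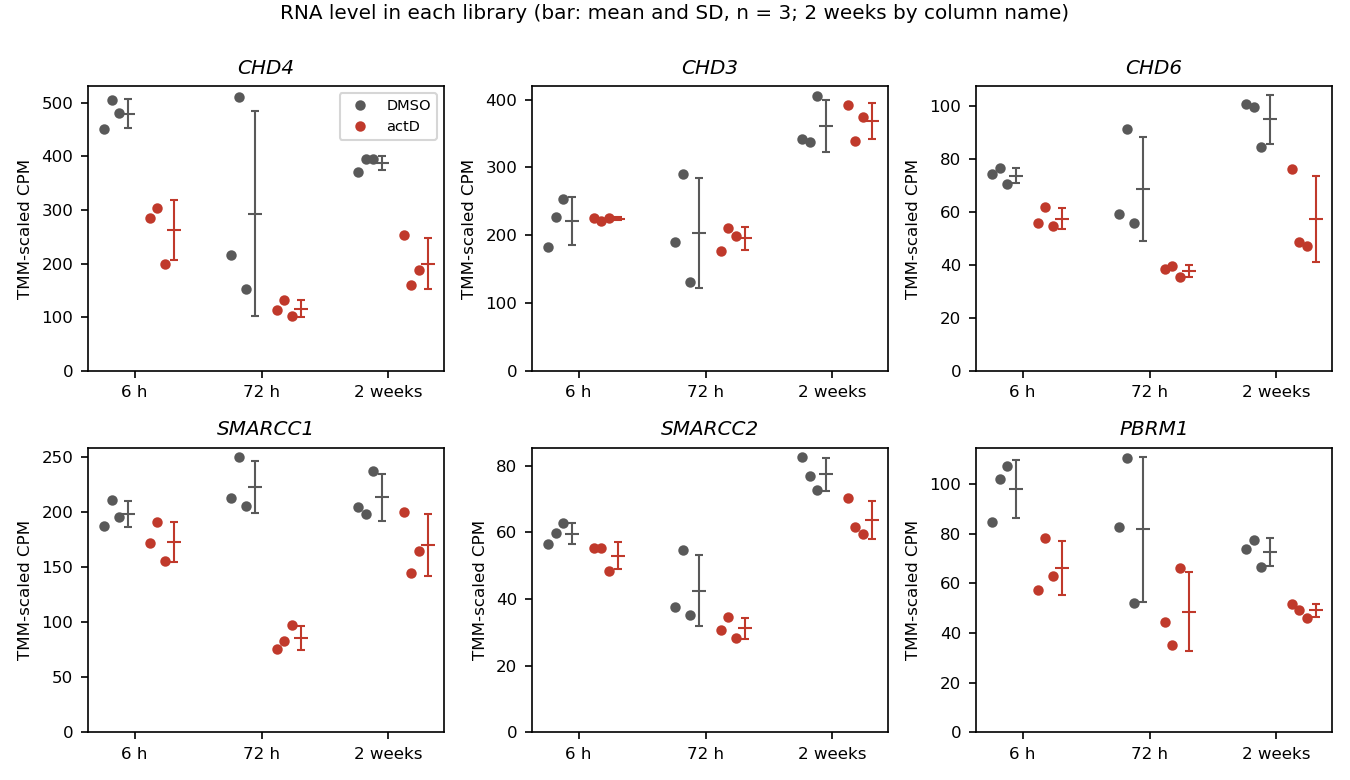
RNA level (y axis, TMM-scaled CPM) of 6 genes in each library at 6 h, 72 h and 2 weeks (x axis), with the mean and SD of 3 libraries beside the points; DMSO is grey and actD red. CHD4, CHD6 and SMARCC2 are lower with actD without overlap at each time, SMARCC1 is set apart at 72 h, and CHD3 overlaps throughout. The 2-week libraries follow their column names, which the sample titles contradict.

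In ISWI both motors had log2 fold changes below 0 at each time. SMARCA1 read 119, 142 and 158 CPM with DMSO and 110.4, 121 and 96.5 with actD at 6 h. SMARCA1 at 72 h read 150.4, 190.5 and 114 CPM with DMSO and 45.6, 54.8 and 118 with actD. SMARCA1 at 2 weeks read 159, 164 and 158 CPM (named dmso) and 153, 73.0 and 88.8 (named actd). Its log2 fold changes were -0.35, -1.06 and -0.61 (SE 0.14, 0.39 and 0.25), with groups apart at 2 weeks only; at 72 h actD replicate 3 stood at the level of DMSO, and without it the value was -1.60. SMARCA5 read 135, 163 and 152 CPM with DMSO and 144, 145 and 123.3 with actD at 6 h. SMARCA5 at 72 h read 172, 187 and 119 CPM with DMSO and 83.9, 91.0 and 144 with actD. SMARCA5 at 2 weeks read 118, 121 and 128 CPM (named dmso) and 129, 70.5 and 91.9 (named actd). The groups overlapped at each time. The share of SMARCA5 in the pair was higher with actD without overlap at each time, 39.5% ± 1.10 against 35.99% ± 2.22, 44.7% ± 5.201 against 35.4% ± 1.79 and 33.0% ± 2.27 against 28.4% ± 1.01. In footprints this share overlapped at 6 h and 2 weeks, and at 72 h DMSO replicate 3 held no count of either gene. In RNA the shares of HDAC1 with HDAC2 and of RBBP4 with RBBP7 overlapped at each time. That of SMARCA4 with SMARCA2 was lower at 6 h and overlapped at 72 h and 2 weeks. BAZ1B, a tyrosine kinase subunit of WICH, was -0.29, -0.64 and -0.45, and BAZ1A was -0.20, -0.79 and -0.56. BPTF, the NURF subunit that reads methylated histone H3, had the highest log2 fold change at 6 h, 0.19 (SE 0.24), with 81.9, 139 and 164 CPM with DMSO and 157, 128 and 153 with actD, followed by RBBP4 at 0.18. RBBP4 read 143, 275 and 248 CPM with DMSO and 249, 159 and 349 with actD at 6 h, and the groups of both genes overlapped.

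Of the 3 INO80-family motors all had log2 fold changes below 0 at 6 h and at 2 weeks and 2 at 72 h, with medians of -0.24, -0.15 and -0.06. In the same order 47.0%, 53.2% and 48.6% of all genes tested were lower. INO80 read 52.0, 52.8 and 57.7 CPM with DMSO and 49.1, 45.0 and 43.6 with actD at 6 h. INO80 at 72 h read 43.8, 45.6 and 36.9 CPM with DMSO and 39.5, 42.0 and 39.7 with actD. INO80 at 2 weeks read 36.8, 35.7 and 38.9 CPM (named dmso) and 36.6, 33.0 and 31.0 (named actd). The INO80 groups were apart at 6 h only. SRCAP read 85.5, 92.8 and 134 CPM with DMSO and 93.9, 99.5 and 112 with actD at 6 h. SRCAP at 72 h read 71.7, 99.1 and 31.3 CPM with DMSO and 73.9, 93.6 and 68.9 with actD. SRCAP at 2 weeks read 99.99, 75.1 and 89.2 CPM (named dmso) and 112, 103 and 47.5 (named actd). The SRCAP groups overlapped at each time. EP400 read 53.7, 55.2 and 80.0 CPM with DMSO and 57.1, 49.7 and 53.0 with actD at 6 h. EP400 at 72 h read 32.5, 51.4 and 21.6 CPM with DMSO and 29.4, 27.0 and 20.5 with actD. EP400 at 2 weeks read 47.9, 38.5 and 45.9 CPM (named dmso) and 46.3, 37.3 and 30.4 (named actd). The EP400 groups overlapped at each time. Their log2 fold changes lay between -0.46 (EP400 at 72 h) and 0.23 (SRCAP at 72 h).

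Of the 6 CHD motors outside NuRD 4 were lower at 6 h and all at 72 h and 2 weeks, with medians of -0.10, -0.21 and -0.42. Among all genes tested 47.0%, 48.6% and 53.2% were lower at 6 h, 72 h and 2 weeks. CHD6 read 74.1, 76.4 and 70.6 CPM with DMSO and 56.0, 61.8 and 54.6 with actD at 6 h. CHD6 at 72 h read 59.2, 91.3 and 55.6 CPM with DMSO and 38.5, 39.7 and 35.3 with actD. CHD6 at 2 weeks read 101, 99.6 and 84.3 CPM (named dmso) and 76.2, 48.8 and 47.2 (named actd). The groups did not overlap at any time, with log2 fold changes of -0.36, -0.86 and -0.73 (SE 0.11, 0.24 and 0.20; edgeR adjusted p 0.464, 0.265 and 0.425). CHD7, the gene of CHARGE syndrome, read 46.2, 61.5 and 50.8 CPM with DMSO and 45.1, 34.1 and 24.6 with actD at 6 h, and its log2 fold changes were -0.61, -0.70 and -0.45, without overlap at 6 h and at 2 weeks. CHD1, which binds methylated histone H3 at active genes, read 72.1, 119.8 and 122.8 CPM with DMSO and 117, 98.5 and 86.0 with actD at 6 h. CHD1 at 72 h read 114, 131 and 73.2 CPM with DMSO and 64.4, 78.3 and 129.8 with actD. CHD1 at 2 weeks read 88.9, 82.7 and 78.6 CPM (named dmso) and 90.9, 48.3 and 47.1 (named actd). The CHD1 groups overlapped each time. CHD8 read 146, 125 and 154 CPM with DMSO and 129.6, 142 and 114 with actD at 6 h. CHD8 at 72 h read 117, 142 and 61.1 CPM with DMSO and 83.3, 85.2 and 109.5 with actD. CHD8 at 2 weeks read 108.6, 132 and 131 CPM (named dmso) and 119, 99.9 and 115 (named actd). The CHD8 groups overlapped too. ATRX, which with DAXX places histone H3.3 in repeats, read 44.6, 68.6 and 100.2 CPM with DMSO and 78.4, 64.7 and 62.2 with actD at 6 h. ATRX at 72 h read 110.1, 189 and 114 CPM with DMSO and 67.7, 79.8 and 129.6 with actD. ATRX at 2 weeks read 126, 127 and 106.8 CPM (named dmso) and 101, 70.4 and 69.0 (named actd). CHD2 was 0.11, -0.16 and -0.41, with overlap, and CHD9 0.09, -0.06 and -0.23, apart at 2 weeks. The ATRX groups were apart at 2 weeks only (-0.58, SE 0.17, adjusted p 0.434).

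Over the 3 times, CHD4, CHD6 and SMARCC2 were the members lower in RNA without overlap throughout, 3 of 46, where 0.928% of all genes tested at each time were. With the 2-week groups taken by title, 0 of 46 members were lower at all 3 times, and 0.0155% of genes. Counted per time, 11 members were lower and 0 higher without overlap at 6 h (background 8.17% lower), 9 and 0 at 72 h (10.3%), and 14 and 2 at 2 weeks (7.83% lower, 7.86% higher). Mitochondrial ribosomal RNA took 24.6% to 32.3% of counts with actD and 15.5% to 22.5% with DMSO at 72 h, and 25.8% to 31.2% in libraries named actd against 19.6% to 22.9% in those named dmso at 2 weeks; its part in the result was not tested. Among nephron progenitor and Wilms tumor markers, IGF2 (1020 to 2359 CPM), LIN28B, VIM, WT1 and OSR1 had medians above 1 CPM, and SIX2, PAX2, PAX8, EYA1, CITED1 and SALL1 below it. Summed markers of leukocytes were at most 2.95 CPM and of mature kidney tubule at most 2.27 CPM in any RNA library, and CDH5 and PECAM1 were at or near 0. The summed endothelial markers were 0.706 to 4.52 CPM at 6 h and 72 h, and at 2 weeks 14.2 to 18.2 (named actd) and 10.9 to 18.4 (named dmso), where nearly all of it was KDR.

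Of 58 further remodelling genes listed from knowledge of the complexes, none passed the edgeR test in any comparison. In RNA 6, 7 and 3 had an unadjusted edgeR p under 0.05 at 6 h, 72 h and 2 weeks. That was 10.53%, 12.28% and 5.36% of those tested, against 8.21%, 13.1% and 8.93% of all genes. Of 57 tested at 6 h 34 were lower, of 57 at 72 h 32, and of 56 at 2 weeks 26, with medians of -0.03, -0.08 and 0.00. These were 59.65%, 56.14% and 46.43%, against 47.0%, 48.6% and 53.2% of all genes. HLTF, a SNF2-family ATPase of replication-fork repair, had the lowest value at 72 h (-1.10, SE 0.27, adjusted p 0.259) and at 2 weeks (-0.94), and SHPRH, its paralog, was -0.76 and -0.59. CECR2 was the lowest at 6 h (-0.58), and DPF1 at 6 h (0.33) and CHRAC1 at 72 h (0.69) stood highest. ARID1B, the alternative to ARID1A in BAF, was -0.46 at 6 h.

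Footprint counts limited what could be read for the set. Total counts per library were 40221994 to 69240041 in RNA and 152556 to 1281039 in footprints. Of the footprint counts 2.12% to 40.4% were protein-coding, 23134 to 283435 counts a library, and 1.18% to 71.4% were miRNA; the largest library, actD replicate 1 at 6 h, held the lowest protein-coding and the highest miRNA share. The median member count was 4.75 at 6 h, 10.8 at 72 h and 10.3 at 2 weeks. After the filter on low counts 12 members were tested at 6 h, 25 at 72 h and 26 at 2 weeks, so the counts below are not counts over all 46. The filter kept a gene that was high enough in 3 libraries, so a gene could pass through 1 arm alone. CHD6 at 72 h passed through DMSO (counts of 18, 16 and 6, against 7, 5 and 16 with actD). So did ATRX at 72 h (23, 20 and 6, against 5, 2 and 18 with actD). HDAC2 at 72 h passed through actD (44, 37 and 38, against 6, 4 and 3 with DMSO). Counts of direction below carry this limit. At 6 h 6 members were listed at 0 in all 6 libraries, among them RBBP4, BRD7, ACTL6A and SMARCB1, whose RNA was abundant, so a listed 0 is not read as absence of translation. Members listed at 0 numbered 21 in actD replicate 1 and 19 in DMSO replicate 3 at 6 h, 18 in DMSO replicate 3 at 72 h, which had the lowest total, and 4 to 17 in the others.

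The summed share of the 46 genes in protein-coding footprints was lower with actD without overlap at each time. The 72 h shares in this paragraph rest on footprints known when the genes were listed, and nothing is read from them. Many members are long genes. In the longest of 4 bins of coding length the median footprint log2 fold change over all protein-coding genes tested was -0.32, -0.51 and -0.29. The part of length in the summed share was not tested. The summed share was 0.698% to 1.10% with actD and 1.16% to 1.39% with DMSO at 6 h, 0.407% to 0.640% and 0.775% to 1.24% at 72 h, and 0.662% to 1.04% and 1.11% to 1.58% at 2 weeks. Without CHD4 the shares overlapped at 6 h (0.661% to 0.921% and 0.901% to 1.02%), while at 72 h (0.391% to 0.613% and 0.690% to 0.968%) and, narrowly, at 2 weeks (0.6144% to 0.9565% and 0.9574% to 1.36%) they did not. In RNA the share overlapped at 6 h and 72 h, and at 2 weeks it was 0.633% to 0.754% (named actd) against 0.778% to 0.811% (named dmso). Mitochondrial ribosomal RNA took 12.4% to 21.0% of footprint counts with actD against 4.80% to 10.6% with DMSO at 72 h, and 5.10% to 6.24% against 3.07% to 4.00% at 2 weeks; its part in these results was not tested. CHD4 made up 60.8% ± 2.29 of the footprints of CHD3 and CHD4 per length with actD against 89.1% ± 7.94 with DMSO at 72 h, and 58.3% ± 5.92 against 73.5% ± 5.63 at 2 weeks, without overlap (SD, n = 3).

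At 6 h the 12 tested members had 0 calls by edgeR (0.0% of all 1212 genes) and 0 by DESeq2 (0.825%), and 1 was lower at an unadjusted p under 0.05 (1.9%). In all 11 of 12 were below DMSO, against 43.2% of all genes and 59.14% of protein-coding genes, whose median was -0.12 against -0.23 for the members. Without overlap 3 were lower (5.69% of all genes, 62 of 810 protein-coding genes) and 1 was higher (3.71%). CHD4 footprints read 249, 199 and 233 CPM with DMSO and 62.0, 111.2 and 38.2 with actD (counts of 244, 153 and 89, and of 30, 42 and 17), without overlap, at a log2 fold change of -1.69 (SE 0.59, edgeR adjusted p 0.889). BAZ1B read 69.3, 67.5 and 86.6 CPM with DMSO and 28.9, 52.9 and 38.2 with actD, also without overlap (-0.89), as was PBRM1 (-0.77). BAZ1B and PBRM1 passed the filter on low counts through the DMSO libraries alone. SRCAP read 35.7, 27.3 and 49.8 CPM with DMSO and 14.5, 15.9 and 31.5 with actD, with overlap (-0.84). MTA3, a NuRD subunit that sets its targets, was the 1 tested member above DMSO (13.3, 15.6 and 13.1 CPM with DMSO and 26.9, 26.5 and 18.0 with actD; 0.75, SE 0.40, adjusted p 0.889). SMARCA4 read 112, 58.4 and 86.6 CPM with DMSO and 53.7, 82.1 and 83.2 with actD (-0.23). CHD8 read 54.0, 41.6 and 42.0 CPM with DMSO and 47.5, 34.4 and 51.7 with actD (-0.04). ARID1A read 51.0, 44.2 and 21.0 CPM with DMSO and 45.5, 26.5 and 42.7 with actD (-0.03). The groups of all 3 overlapped.

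At 72 h, in the comparison whose results were known when the genes were listed, 20 of 25 tested members were below DMSO, against 47.2% of all genes and 48.04% of protein-coding genes tested, with a median of -0.46 against 0.07. CHD4 read 471, 835 and 286 CPM with DMSO and 70.2, 62.5 and 90.4 with actD (counts of 208, 249 and 23, and of 47, 23 and 76), a log2 fold change of -2.84 (SE 0.53). ATRX read 52.0, 67.1 and 74.6 CPM with DMSO and 7.47, 5.44 and 21.4 with actD (-2.29, SE 0.49), and CHD6 40.7, 53.6 and 74.6 CPM with DMSO and 10.5, 13.6 and 19.0 with actD (-1.81, SE 0.39). These 3 had an edgeR adjusted p under 0.05, lower, where percent called was 3.79 in either direction and 2.18 lower; the choice of genes used this contrast, and nothing is read from the count. The DMSO library with the fewest counts held 23 CHD4 counts and 6 each of ATRX and CHD6, and no member was called without DMSO replicate 1, DMSO replicate 2, actD replicate 1 or actD replicate 2, or with scaling by library totals, against 6 without actD replicate 3. SMARCA4 (403, 369 and 410.4 CPM with DMSO and 218, 174 and 228 with actD), CHD8 (174, 158 and 162 CPM with DMSO and 79.1, 84.3 and 112 with actD) and EP400 (63.3, 33.5 and 62.2 CPM with DMSO and 31.4, 32.6 and 24.98 with actD) also lay below DMSO without overlap, as did ARID1A, PBRM1 and BAZ1B, 9 of 25 in all (16.2% of all genes).

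HDAC2, a deacetylase of NuRD, stood above DMSO at 72 h. Its footprints read 13.6, 13.4 and 37.3 CPM with DMSO and 65.7, 101 and 45.2 with actD (counts of 6, 4 and 3, and of 44, 37 and 38), the 1 tested member above DMSO without overlap (19.5% of all genes), at a log2 fold change of 2.01 (SE 0.52), while its RNA was -0.34. The DMSO arm rested on 3 to 6 counts a library, and HDAC2 passed the filter on low counts through the actD libraries alone. Its edgeR adjusted p was 0.0704, and nothing is read from its rise. MBD3 (24.9, 6.71 and 0 CPM with DMSO and 61.2, 2.72 and 29.7 with actD; 1.16), GATAD2B (33.9, 40.2 and 0 CPM with DMSO and 32.8, 38.1 and 57.1 with actD; 0.49), SMARCE1 and SRCAP (83.7, 80.5 and 124 CPM with DMSO and 134, 114 and 101 with actD; 0.33) were above DMSO with overlap. CHD3 (36.2, 53.6 and 74.6 CPM with DMSO and 52.3, 40.8 and 55.9 with actD) was at -0.02, and SMARCA2 (24.9, 23.5 and 62.2 CPM with DMSO and 16.4, 24.5 and 23.8 with actD) was -0.49. INO80, SMARCA1, SMARCA5 and CHD1 held too few counts to be tested.

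At 2 weeks, where the footprint labels do not conflict, 21 of 26 tested members were below DMSO, against 48.7% of all genes and 48.05% of protein-coding genes, with a median of -0.30 against 0.02. By edgeR and by DESeq2 0 were called (0.0% of all 1598 genes by each), and 5 were lower at an unadjusted p under 0.05 (4.51%). CHD4 read 173, 143 and 118 CPM with DMSO and 67.2, 33.1 and 40.8 with actD (-1.62, SE 0.40, edgeR adjusted p 0.527). ATRX read 27.9, 37.8 and 30.2 CPM with DMSO and 15.9, 10.3 and 13.1 with actD (-1.29, SE 0.28, adjusted p 0.527). The groups did not overlap for either gene, nor for PBRM1 (-1.10), BAZ1B (-1.11) and CHD9 (-1.14), 5 of 26 against a background of 6.57% lower. ATRX, PBRM1, BAZ1B and CHD9 passed the filter on low counts through the DMSO libraries alone, so nothing is read from this count. Their actD counts were 14, 9 and 9 (ATRX), 19, 14 and 11 (PBRM1), 29, 13 and 8 (BAZ1B) and 12, 10 and 3 (CHD9). CHD6 (27.9, 20.7 and 15.1 CPM with DMSO and 18.2, 4.56 and 4.37 with actD; -1.17) overlapped by 1 library. HDAC2, high at 72 h, was -0.33, and the highest values, all with overlap, were those of 3 NuRD subunits. GATAD2A read 15.5, 11.7 and 7.55 CPM with DMSO and 17.1, 16.0 and 8.75 with actD (0.29). RBBP4 read 10.8, 15.3 and 18.1 CPM with DMSO and 14.8, 20.5 and 18.9 with actD (0.28). GATAD2B read 18.6, 18.9 and 15.1 CPM with DMSO and 17.1, 17.1 and 23.3 with actD (0.10). CHD3 (66.6, 69.3 and 31.7 CPM with DMSO and 51.3, 30.8 and 23.3 with actD; -0.67), SMARCA4 (108.4, 62.1 and 60.4 CPM with DMSO and 78.6, 58.1 and 52.5 with actD; -0.28) and SRCAP (96.0, 45.9 and 34.7 CPM with DMSO and 46.7, 52.4 and 51.0 with actD; -0.23) overlapped too. So did CHD8 (63.5, 52.2 and 43.8 CPM with DMSO and 46.7, 38.8 and 29.2 with actD; -0.47), EP400 (12.4, 13.5 and 13.6 CPM with DMSO and 12.5, 11.4 and 7.29 with actD; -0.32) and SMARCA1 (10.8, 8.10 and 28.7 CPM with DMSO and 13.7, 2.28 and 5.83 with actD; -1.02). CHD4, PBRM1 and BAZ1B were lower in footprints without overlap at all 3 times, 3 of the 12 members tested at each, where 1.9% of genes were. The 72 h libraries among these were part of what was known. PBRM1 and BAZ1B passed the filter through DMSO alone at 6 h and 2 weeks, so nothing is read from this count either.

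In footprints the ATPases lay below the accessory subunits. The median log2 fold change was -0.54 over 4 ATPases and -0.22 over 8 accessory subunits at 6 h, -0.81 over 11 and -0.24 over 14 at 72 h, and -0.67 over 11 and -0.10 over 15 at 2 weeks. All 11 tested ATPases were below DMSO at 2 weeks and 10 of 11 at 72 h, SRCAP being the exception, against 10 of 15 and 10 of 14 accessory subunits. Among all genes tested 48.7% and 47.2% were below DMSO, and the filter could pass a gene through 1 arm alone. Several ATPases passed through DMSO alone at 2 weeks, among them ATRX, CHD9, CHD6 and EP400, so these counts of direction carry that limit. In RNA, with all 18 and 28 tested, the medians were -0.11 and -0.04 at 6 h, -0.22 and -0.32 at 72 h, and -0.28 and -0.09 at 2 weeks, so the order was the opposite at 72 h. Leaving out single libraries turned the sign of the difference between roles at 6 h in footprints (-0.76 to 0.13) and in RNA at 6 h (-0.19 to 0.02) and 72 h (-0.15 to 0.19). Members are not replicates, and no test was made of the difference. Taken library by library as the median level of the ATPases minus that of the accessory subunits (log2 CPM), the arms overlapped in footprints at 72 h, with -0.05 to 0.11 with actD and -0.34 to 0.58 with DMSO, and at 2 weeks, with -0.12 to 0.98 and 0.68 to 1.28. When each gene was first centred on its mean over the 6 libraries, a form chosen after the overlap of the first was seen, the arms did not overlap: -0.68 to -0.37 with actD and -0.05 to 0.58 with DMSO at 72 h, and -0.25 to 0.02 and 0.16 to 0.34 at 2 weeks. The difference between roles in single libraries therefore depended on this choice.

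**Figure D4:**
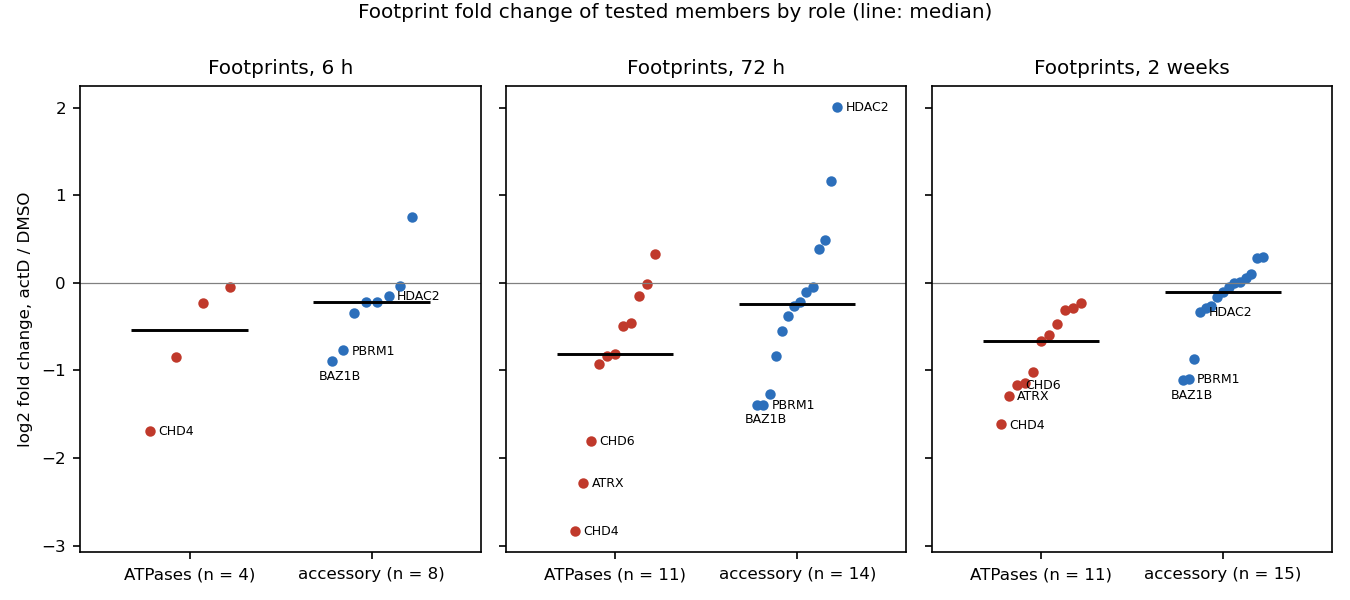
Log2 fold change of footprints (actD over DMSO, y axis) of each tested member at 6 h, 72 h and 2 weeks, split into ATPases (red) and accessory subunits (blue); the black line is the median. The ATPase medians are -0.54, -0.81 and -0.67, the accessory medians -0.22, -0.24 and -0.10.

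ATPases are also long proteins, and footprint values moved with coding length across all genes. Coding length here merges the coding exons of all annotated transcripts of a gene, so it can exceed the longest single coding sequence. Its median was 6230.5 bp over the 18 ATPases and 1929 bp over the 28 accessory subunits. The 2225 protein-coding genes tested at 72 h were split into 4 bins of like size from the shortest to the longest coding length. The median log2 fold change was 0.85, 0.28, -0.36 and -0.51. Pearson r was -0.49 and Spearman rho -0.58 across genes, which are not independent replicates. All 11 tested ATPases belonged to the longest bin. Over the 202 tested genes at least as long as the shortest tested ATPase the median was -0.51, against -0.81 for the ATPases. At 2 weeks the bins stood at 0.34, 0.14, -0.07 and -0.29, and the 346 genes as long as the shortest tested ATPase at -0.29, against -0.67. The part of length in the difference between roles was not tested. Long accessory subunits differed among themselves, with BPTF at -0.84 and BAZ2A at -0.05 at 72 h.

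**Figure D5:**
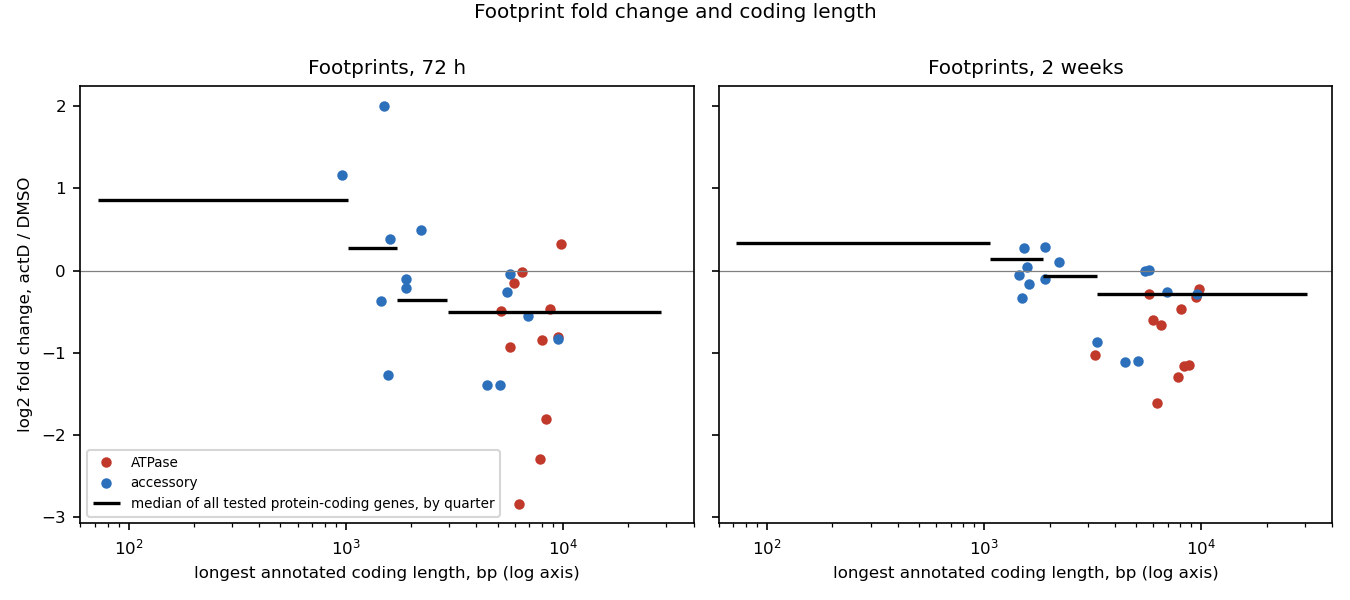
Log2 fold change of footprints (actD over DMSO, y axis) of tested members against coding length at 72 h and 2 weeks. The x axis (bp, log scale) is labelled longest annotated coding length but merges the coding exons of all annotated transcripts. ATPases are red, accessory subunits blue, and black lines give the median of all tested protein-coding genes in each of 4 bins of coding length. Bin medians go from 0.85 to -0.51 at 72 h and from 0.34 to -0.29 at 2 weeks.

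Footprints were then set against RNA, as translational efficiency, the change in footprints beyond the change in RNA fitted as an interaction over both kinds of library. At 6 h none of 12 tested members was called by edgeR (0.0% of all genes) or DESeq2 (0.105%), and 1 had an unadjusted p under 0.05 (5.26%). CHD4 stood at -0.77 (SE 0.54, adjusted p 0.941) and MTA3 at 1.01 (SE 0.39, adjusted p 0.736). At 72 h, which shares the known footprint libraries, 20 of 25 members were below 0 (48.1% of all genes). By edgeR 0 were called (0.433%), by DESeq2 1, HDAC2 (2.55%), and 4 had an unadjusted p under 0.05 (14.9%). All 11 tested ATPases were below 0, led by ATRX at -1.87 (SE 0.60), CHD4 at -1.69 (SE 0.64) and CHD6 at -1.11 (SE 0.43), and 9 of 14 accessory subunits were. Efficiency at 72 h also went with coding length, with medians of 0.70, 0.29, -0.26 and -0.39 from the shortest to the longest of 4 bins. Over the 202 tested genes at least as long as the shortest tested ATPase the median was -0.39, against -0.54 for the ATPases. The part of length in efficiency was not tested. HDAC2 stood highest, at 2.22 (SE 0.54), with the same 3 to 6 DMSO footprint counts a library. No 2-week efficiency was computed, because the treatment of the RNA libraries is contradicted by their titles. Between 72 h and 6 h RNA effects edgeR called 0 members (0.0165% of all genes) and DESeq2 1, lower (0.52%), with 3 at an unadjusted p under 0.05 (8.02%). Between 72 h and 6 h footprint effects 0 members were called by edgeR (0.0%) or DESeq2 (0.166%), with 3 at an unadjusted p under 0.05 (6.54%). Between 2-week and 72 h footprint effects 0 were called by edgeR (0.0532%) or DESeq2 (0.266%), with 1 at an unadjusted p under 0.05 (7.5%). HDAC2 was lowest, at -2.48 (SE 0.64), a value that includes the same low DMSO counts at 72 h.

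ActD is known to prefer GpC steps in DNA, so the start regions of the members were read for them. Of the 46 genes 36 had entries in the RefSeq table (GRCh38.p14), 58 entries in all, each read over the 250 bases before the start. Median GC content was 67.4% over these entries and 58.0% over all 35116 entries, and the median number of GpC steps (the letters GC, the same on both strands, counted at every position) was 29 against 20; 99.97% of all entries hold at least 1. Entries of ATPases had a median GC content of 59.0% and those of accessory subunits 70.6%. These medians are over entries, not genes. CHD9, SMARCA2 and SMARCAD1 have several entries each, from 34.8% to 74.8% GC, and weigh more in the ATPase median. The windows of BAZ1B and CHD3 are given, BAZ1B as a member lower in footprints without overlap at all 3 times and CHD3 as the NuRD motor whose RNA overlapped with DMSO throughout, both free of annotated exons, with GpC steps in capitals. The BAZ1B window, chr7:73522294-73522543 on the minus strand, lies just before the gene and holds 30 steps at 65.2% GC; 23.3% of all entries hold as many.
BAZ1B: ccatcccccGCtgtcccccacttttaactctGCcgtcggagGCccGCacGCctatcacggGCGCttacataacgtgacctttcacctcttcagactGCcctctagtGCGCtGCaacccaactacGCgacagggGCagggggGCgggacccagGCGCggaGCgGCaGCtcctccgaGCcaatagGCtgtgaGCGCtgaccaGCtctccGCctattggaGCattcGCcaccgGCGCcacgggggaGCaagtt
The CHD3 window, chr17:7888539-7888788 on the plus strand, lies inside the gene span before an internal start and holds 19 steps at 58.8% GC; 54.1% of all entries hold as many.
CHD3: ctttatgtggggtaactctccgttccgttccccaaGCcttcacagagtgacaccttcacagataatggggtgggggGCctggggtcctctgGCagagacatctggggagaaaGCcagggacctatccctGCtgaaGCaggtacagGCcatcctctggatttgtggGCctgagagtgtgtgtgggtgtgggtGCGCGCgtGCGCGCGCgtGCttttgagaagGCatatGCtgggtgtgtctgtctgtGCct
Both windows were picked with the values in view, BAZ1B by footprints and CHD3 by RNA, and BAZ1B RNA overlapped at 72 h. They do not stand for the set. The letters describe these windows only, and no relation between GpC steps and the values was tested.

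Most members share their locus with other annotated genes, which bears on how reads were assigned. In GENCODE release 29 (GRCh38) 40 of 46 members overlap another gene, 24 of them on the same strand, and whether the authors' counting used strand is not given in the sources used here. Overlap was taken over whole gene spans, with a median of 76.0 kb for members and 27.1 kb for all protein-coding genes. The share over all genes was not computed, so these counts are not read as a trait of the set. CHD4 lies at chr12:6570082-6614524 and overlaps the small RNA gene SCARNA11, PBRM1 at chr3:52545352-52685917 overlaps GNL3 and SMIM4, SMARCC1 at chr3:47585272-47782106 overlaps AC112512.1 and AC130472.1, and BAZ1B lies at chr7:73440398-73522278. RBBP4 and RBBP7, HDAC1 and HDAC2, and the CHD and SMARCA pairs are close paralogs, so their separate levels rest on how shared reads were placed.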

How the data were processed

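Total RNA and ribosome footprint libraries of WiT49 cells were compared within each of 6 tables of 6 libraries. The authors deposited estimated counts per gene as whole numbers; HISAT2, StringTie and hg38 are named per the submitters' processing notes, with no versions or roles, and the counting step is not given in the sources used here. An exact 0 may be a failed estimate and is given as listed at 0. Genes were matched to GENCODE release 29 by identifier without version (99.419% of RNA and 99.362% of footprint identifiers). edgeR 4.0.16 (R 4.3.3, limma 3.58.1) was used with TMM scaling, filterByExpr and the quasi-likelihood test, with Benjamini-Hochberg adjustment over all genes and a threshold of 0.05; translational efficiency and differences between times were interaction terms. CPM values are TMM-scaled. Summaries used Python 3.11.15, pandas 2.3.3, numpy 2.4.6 and matplotlib 3.10.9. Code was tested on simulated data.

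The 46 members, the 58 further genes and the marker lists were chosen with earlier results of these data known. All members may be named; values in every library are given for SMARCA4, SMARCA2, SMARCA5, SMARCA1, CHD3, CHD4, INO80, SRCAP, EP400, CHD1, CHD8 and ATRX in the RNA and footprint comparisons where they were tested. Members past the threshold and the 3 highest and 3 lowest tested members of each RNA and footprint comparison are named; further genes with values in each library were picked with their values in view. The 2-week RNA groups follow the column names, which the titles contradict. No 2 libraries of the same group were duplicates: chi-square per degree of freedom between replicates was at least 7.39. Libraries of different groups were not compared in this way. Alternatives were DESeq2 1.42.0, RLE factors, library totals, no filter, 1 fit over the 3 times, a replicate block and leaving out each library; the difference between roles taken within libraries was added after the files were seen, its gene-centred form after the other had been. One marker of the cell type check is not reported here.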

Additional observations from a re-analysis of the deposited data

How the results depend on the processing

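Counts of called members depended on the tool and on single libraries. DESeq2 called 2 members in RNA at 6 h, 2 at 72 h and 3 at 2 weeks, 1 in translational efficiency at 72 h (HDAC2) and 1 in the difference of RNA effects between 72 h and 6 h (SMARCC1), where edgeR called 0 each time. One fit over the 3 times called 5 members in RNA at 72 h (CHD4, CHD6, SMARCC1, RBBP7 and HDAC1). The 3 footprint calls at 72 h became 0 with library totals, and 0 to 6 when single libraries were left out; for translational efficiency at 72 h the latter range was 0 to 1, and without the filter on low counts 1 member was called in the difference of footprint effects between 2 weeks and 72 h. The cause was not tested. Members below DMSO numbered 35 without the filter and 29 in the fit over 3 times for 6 h footprints and 37 without the filter for 2-week footprints, where more members were tested; leaving out libraries gave 27 to 36, 36 to 42 and 32 to 39 of 46 in RNA and 11 to 15, 20 to 22 and 16 to 24 in footprints at 6 h, 72 h and 2 weeks. The difference between ATPase and accessory medians was -0.53 to -0.73 in 72 h footprints, -0.40 to -0.79 in 2-week footprints and -0.37 to -0.83 in efficiency at 72 h when libraries were left out, but -0.0663 at 72 h as a difference of library medians of levels and -0.75 with genes centred; both were chosen after seeing the data, the centred form after the arms had overlapped in the other. Same-numbered libraries did not pair: for 72 h footprints the correlations of their deviations were 0.04, -0.06 and -0.03, and in no comparison did every pair pass 0.1. RNA and footprint libraries of the same number at 72 h came closest, with 0.18, 0.19 and 0.42 for actD and 0.15, 0.06 and 0.16 for DMSO, and with the block no member was called in efficiency there and the difference between roles was -0.65. With replicate number as a block the count for 72 h footprints was 0, and no other count of called members changed; in RNA at 72 h each of 3 actD libraries correlated best with its own number. Low footprint counts, with medians of 4.75 to 10.8 per member, limit what footprints can show.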
